A study of Danio rerio with 12 samples.

Results

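The long arm of zebrafish chromosome 4 was examined in peak lists from ATAC-seq, which uses a transposase to tag DNA that is not packed away, so that peaks mark accessible chromatin. An accessible interval was counted as long arm when it lay on chromosome 4 and began at or past 28 Mb, a rule of position that uses no measured value. By this rule the 12 complete lists held 11469 long arm intervals among 1146040 intervals on chromosomes 1 to 25. After each list was cut to its 57910 strongest intervals, the size of the shortest list, and overlapping intervals were merged, 2072 of 192747 regions lay on the long arm, 4497 on the short arm and 186178 on the other chromosomes.

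The long arm of this chromosome is known as a large heterochromatic block. It is rich in repeats, replicates late, holds few of the genes that fish share with mammals, and carries large families of zinc finger genes and NOD-like immune receptor genes besides many genes for small RNAs. In wild strains a sex-linked region lies toward its end.

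Melanoma cells (MA, 8 libraries, replicates 4 to 11) were sorted by a GFP reporter from tumours of adult BRAFV600E/p53lf/lf/crestin:EGFP fish. They were compared with precancerous melanocytes (MC, 4 libraries), sorted by mCherry from the skin of adult fish without tumours, of which 3 libraries (MC_Het, replicates 4, 5 and 6) came from BRAFV600E/+/p53+/lf/mitfa+/-/mitfa:mCherry fish and 1 (MC_Homo) from a BRAFV600E/p53lf/lf/mitfa+/-/mitfa:mCherry fish. All 12 libraries therefore carried the BRAFV600E transgene, which the mitfa promoter drives in the melanocyte lineage, and at least 1 loss-of-function allele (lf) of p53, and the mCherry transgene also brings a minigene of mitfa into the MC fish. Sequencing run 2 held MA replicates 4 and 5 besides all 4 MC libraries, and run 3 held the other 6 MA libraries, so cell type can be separated from run in run 2 alone. Each library came from a different fish, and reporter, the mitfa background and tissue of origin differed between MA and MC together and cannot be told apart. The BRAFV600E and p53lf/lf alleles of MC_Homo are labelled as those of MA. The names of the intervals in the 6 MA lists of run 3 contain pig or unpig, a distinction that the labels do not give, so it was not used to form groups and its part in the results was not tested.

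Depth, recovered from the peak scores, was 6.05 to 11.54 M tags in MA and 6.42 to 24.62 M tags in MC, where MC_Het replicate 5 stood apart as the deepest. Complete lists held 387 to 988 long arm intervals in MA and 756 to 2598 in MC. To compare lists of equal length, the comparisons used the lists of 57910 intervals. MA replicates 10 and 11 stood apart by a low number of intervals on the short arm. Without them the long arm differed from the short arm by a log2 ratio of -1.84 in density, by -28.3 bp in median width and by a log2 ratio of 0.18 in median fold, the measures described next. Cell type markers and genes could not be placed on this assembly and were not analysed here.

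The long arm held few accessible intervals for its length in every library. Reads that match several places were lost to the mapping filter, and unknown bases were kept in the length. How far either lowers the density was not tested. Its 50.09 Mb make up 3.72% of the length of chromosomes 1 to 25, but its intervals made up 1.01% ± 0.20 of the list in MA and 1.38% ± 0.11 in MC (SD, n = 8 and 4). In MA the long arm held 7.49 intervals per Mb in the lowest library, 12.1 at the median and 14.5 in the highest. In MC it held 15.5, 17.8 and 15.3 intervals per Mb in MC_Het replicates 4, 5 and 6 and 15.1 in MC_Homo. All 8 MA libraries lay below all 4 MC libraries.

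The short arm of the same chromosome lay near the density of the rest of the genome. It held 26.1, 49.8 and 53.4 intervals per Mb at the lowest, the median and the highest of the MA libraries, and 46.8, 45.9, 45.1 and 51.4 in the MC libraries. The other 24 chromosomes held 44.2 ± 0.29 per Mb in MA and 44.0 ± 0.06 in MC, and among them the lowest mean for a whole chromosome was 36.4 per Mb in MA, on chromosome 12, and 36.0 in MC, on chromosome 5. Within libraries the long arm was 3.53-fold less dense than the short arm (log2 ratio -1.82 ± 0.28, SD, n = 12) and 3.46-fold less dense than the other chromosomes (-1.79 ± 0.35), lower in 12 of 12 libraries in both comparisons. Both gave p = 0.000488 in two-sided exact sign permutation tests, the smallest p that 12 libraries allow, and 0.00114 after adjustment over 7 comparisons of the long arm with other sequence.

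**Figure D1:**
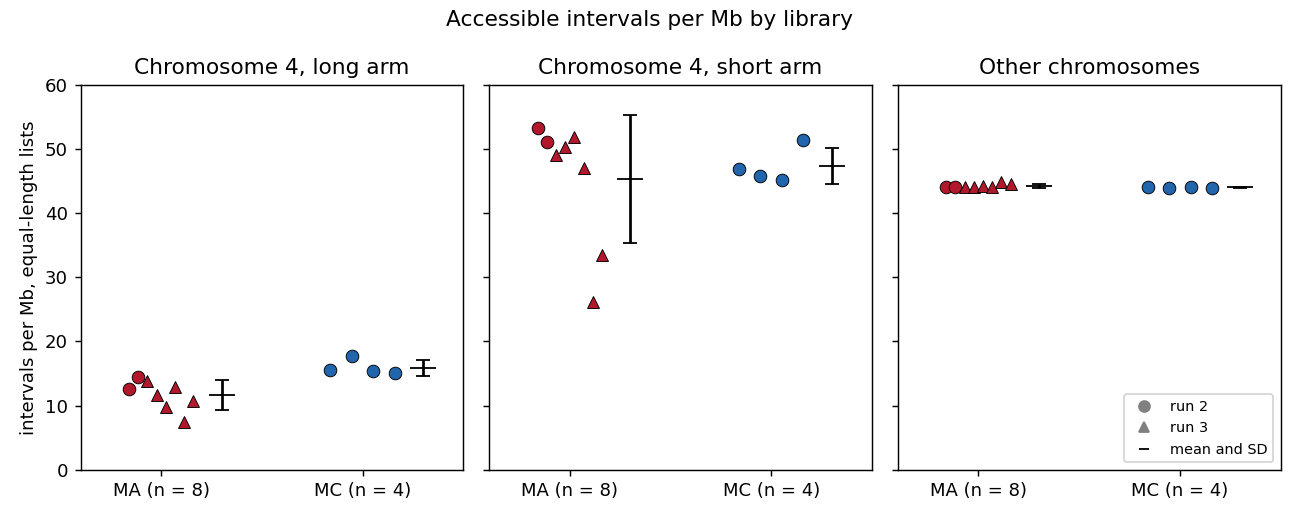
Accessible intervals per Mb (y axis) in the lists of 57910 intervals, for the long arm of chromosome 4 (left), its short arm (middle) and the other chromosomes (right), with 1 point for each MA and MC library, the point shape for the sequencing run, and the bar for mean and SD. On the long arm the MA libraries lie between 7.49 and 14.5 and the MC libraries between 15.1 and 17.8, while on the short arm the groups overlap.

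The long arm was less dense in MA than in MC. The difference of the means was -0.47 on the log2 scale, or 1.39-fold lower in MA, with p = 0.0141 (two-sided exact permutation test, 495 arrangements) and 0.0283 after adjustment over 8 comparisons of MA with MC. For the short arm the difference was -0.10 (p = 0.725 in the same exact test), and it was 0.09 without MA replicates 10 and 11. The ratio of long to short arm, which tests whether the arms differ in their response, was also lower in MA. Its log2 difference was -0.37 (exact permutation p = 0.0141, adjusted 0.0283), and -0.45 without MA replicates 10 and 11 (exact p = 0.00952). The difference in this ratio stayed negative in other settings but did not always pass the threshold. It was -0.09 in complete lists (exact p = 0.541) and -0.21 in lists thinned to the lowest depth (exact p = 0.0848). Without MC_Het replicate 5 it was -0.31 (exact p = 0.0788), and in run 2 -0.38 (exact p = 0.0667, the smallest possible there). The call on this ratio thus depended on the lists used and on MC_Het replicate 5. Mean densities of whole chromosomes also differed between MA and MC, in either direction. Chromosomes 15 and 16 held 40.4 and 36.8 intervals per Mb in MA, against 48.8 and 48.9 in MC. Chromosomes 9 and 19 held 51.5 and 64.6 in MA, against 41.3 and 54.5 in MC. These differences were not tested, and the long arm deficit was not compared with them.

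Within run 2, MA replicates 4 and 5 held 12.5 and 14.5 intervals per Mb on the long arm, and the MC libraries 15.1 to 17.8. The difference there was -0.24 (exact p = 0.0667, the smallest p that 2 against 4 libraries allow). Between the runs within MA, the long arm density differed by 0.31 on the log2 scale, run 2 minus run 3 (exact permutation p = 0.25), a size close to that between cell types in run 2. In lists thinned to the lowest depth the difference between MA and MC was -0.39 with an exact p = 0.107, which does not pass the threshold. It was -0.73 with the 10000 strongest intervals of each library (exact p = 0.00404). Complete lists also gave -0.73 (exact p = 0.0384), but they differ in length, and that of MC_Het replicate 5 is the longest. As a share of complete lists the difference was -0.35 (exact p = 0.0545), which does not pass the threshold.

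The density of intervals along the long arm was not even. It fell off over the first 3 Mb past the boundary, stayed low through an interior of 41 Mb between 31 and 72 Mb, and was higher again over the last 6.09 Mb. These limits were drawn after seeing the profile. In MA the first stretch held 23.2 ± 7.6 intervals per Mb, the interior 7.41 ± 1.57 and the end 34.7 ± 7.2 (SD, n = 8), and in MC the values were 25 ± 2.7, 11.3 ± 1.2 and 42.5 ± 2.1 (SD, n = 4). The end of the arm thus came near to the density of the other chromosomes in MC, and the interior carried 51.9% ± 2.6 of the long arm intervals in MA and 58.0% ± 2.2 in MC.

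The interior alone was also less dense in MA than in MC. Its density was 4.88, 7.44 and 9.68 intervals per Mb at the lowest, the median and the highest of the MA libraries, and 11.3, 12.98, 10.9 and 10.1 in the MC libraries, with no overlap. The log2 difference was -0.63, or 1.55-fold lower in MA (exact permutation p = 0.00606), and it stayed between -0.69 and -0.55 when any 1 library was left out. In run 2 it was -0.40, with both MA libraries below all MC libraries (exact p = 0.0667, the smallest possible). The first 3 Mb differed by -0.17 (exact p = 0.564) and the end by -0.32 (exact p = 0.0667). For the end the call rested on 1 library, with an exact p = 0.0242 without MA replicate 5, and in run 2 its difference was -0.01. As a share of the long arm intervals of a library, the interior differed by -6.12 percentage points, MA minus MC (exact permutation p = 0.00404), the end by 3.66 (exact p = 0.0808) and the first 3 Mb by 2.45 (exact p = 0.178). These p-values are unadjusted.

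**Figure D2:**
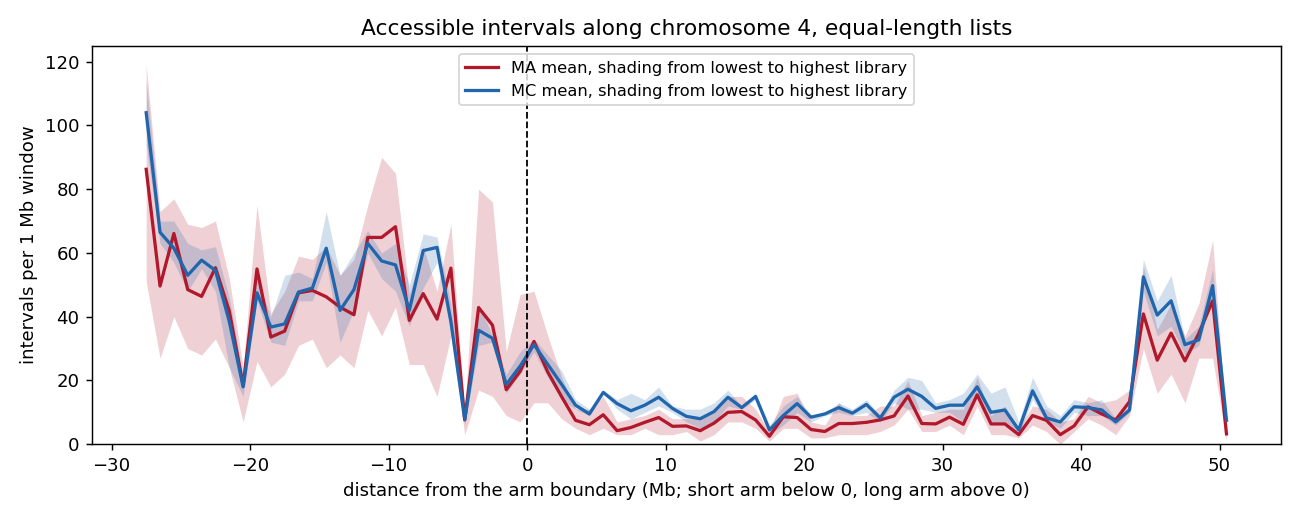
Intervals per 1 Mb window (y axis) along chromosome 4, against the distance from the arm boundary in Mb (x axis, short arm left of 0, long arm right of 0), as the mean of the 8 MA and of the 4 MC libraries with shading from the lowest to the highest library. Past the boundary both lines drop and run low for about 41 Mb with MA under MC, and then climb near the end of the chromosome.

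Windows of 1 Mb were also compared. Of the 51 long arm windows, 46 (90.2%) had a lower mean in MA than in MC, against 53.7% of all 1361 windows. At an unadjusted p under 0.05 by the exact permutation test, 29 long arm windows were lower in MA and 0 were higher, where 17.9% of all windows were lower and 10.9% higher. The 29 lay in the interior and at the end of the arm. After Benjamini-Hochberg adjustment over all windows 13 of the 51 were lower (25.5%, against 5.14% of all windows), and in 12 of them every MA library lay below every MC library, which 5.14% of all windows showed. These 12 lay in the interior.

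The window chr4:34000001-35000000 held 3 to 7 intervals in the MA libraries and 11 to 14 in the MC libraries. The window chr4:49000001-50000000 held 2 to 6 in MA and 9 to 10 in MC, and the window chr4:56000001-57000000 held 4 to 9 in MA and 11 to 20 in MC. All 3 reached an adjusted p = 0.0335 with the exact test, the lowest of any window. The adjusted count was fragile, since it was 0 to 16 when 1 library was left out, and 0 without any 1 of MA replicates 6, 7, 8, 9 and 10 or of the 4 MC libraries. The unadjusted count stayed between 22 and 32, while over all windows it was 192 to 264. The number with a lower mean in MA stayed between 44 and 48. For that number and for the adjusted count, the share over all windows was not counted with libraries left out. In run 2 alone 41 of the 51 windows (80.4%) had a lower mean in MA, against 51.5% of all windows. In 15 (29.4%) both MA libraries lay below every MC library, against 18.2% of all windows. In 3 (5.88%) both MA libraries lay above every MC library, against 11.7% of all windows.

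Sparse windows elsewhere were compared too, but they were not matched to the long arm in density. Of 1336 windows of full length, 77 held fewer than 10 intervals on average, and 30 of these were among the 50 full windows of the long arm. Among windows with fewer than 20 intervals on average, the mean was lower in MA in 39 of 42 on the long arm (92.9%) and in 85 of 150 on other chromosomes (56.7%). At an unadjusted p under 0.05, 25 of the 42 long arm windows (59.5%) and 35 of the 150 others (23.3%) were lower in MA. The 42 long arm windows held 7.59 intervals on average in MA and 11.5 in MC, and the 150 others 12.4 and 13.8. Windows were picked by the mean of all 12 libraries, of which 8 are MA, so the choice leans to windows low in MA. These shares are descriptions, as neighbouring windows are not independent replicates.

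The strongest intervals were the least depleted on the long arm. Among the 1000 strongest intervals of a library, 1.7%, 2.45% and 3.6% lay on the long arm at the lowest, the median and the highest of the MA libraries, and 4.2%, 4.7%, 4.6% and 3.9% in the MC libraries. All 4 MC libraries were thus above the 3.72% that length alone would give, and all 8 MA libraries below it. The difference was -1.86 percentage points (exact permutation p = 0.00202, the smallest p of this design) and -1.25 in run 2 (exact p = 0.0667, the smallest possible there).

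Further down the list the share was lower in both cell types. It was 1.06% ± 0.24 in MA and 1.70% ± 0.25 in MC at ranks 1001 to 10000, and 0.914% ± 0.133 in MA and 1.60% ± 0.12 in MC at ranks 10001 to 30000. At ranks 30001 to 57910 it was 1.01% ± 0.28 in MA and 1.01% ± 0.18 in MC (SD, n = 8 and 4), a difference of 0.00 percentage points (exact permutation p = 0.984). Over all 12 libraries the deficit of MA was thus seen in the first 3 classes of rank and not in the weakest class. At ranks 1001 to 10000 it was -0.64 percentage points, and -0.37 in run 2 (exact permutation p = 0.133). At ranks 10001 to 30000 it was -0.69, and -0.57 in run 2 (exact p = 0.0667, the smallest possible there). The classes were set after seeing the data, and their p-values are unadjusted.

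**Figure D3:**
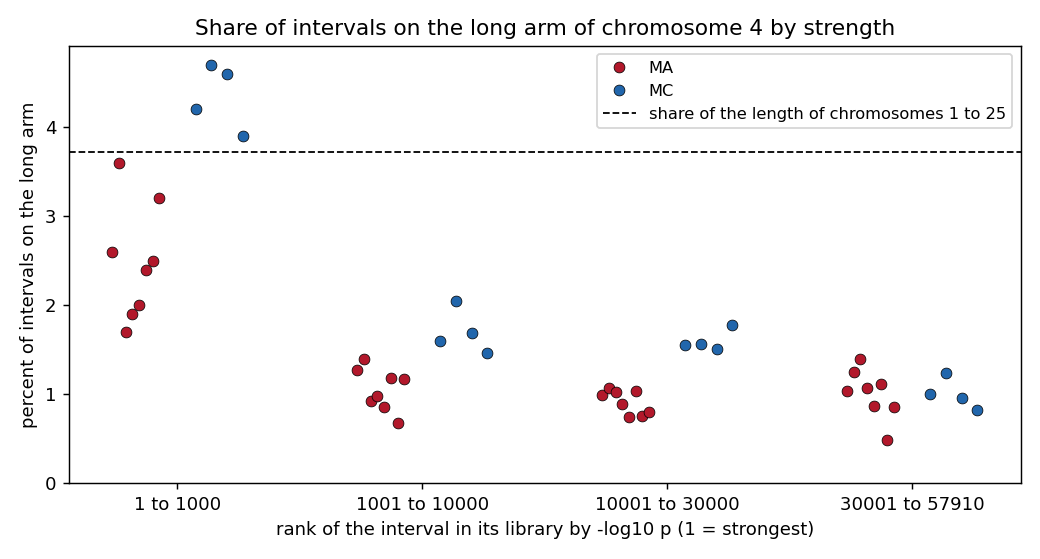
Percent of intervals that lie on the long arm (y axis) in 4 classes of rank by −log10 p (x axis, strongest at the left), with 1 point for each MA and MC library and a dashed line at the 3.72% that the long arm takes of the length. In the strongest class MC lies at 3.9 to 4.7% and MA at 1.7 to 3.6%, and in the weakest class the groups overlap.

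Long arm intervals were narrower than intervals elsewhere in MA and of like width in MC. The median width on the long arm was 130, 148 and 161 bp at the lowest, the median and the highest of the MA libraries, and 126, 151, 134 and 121 bp in the MC libraries. On the other chromosomes it was 188 ± 28 bp in MA and 133 ± 22 bp in MC. Within libraries the long arm was narrower by 41.3 ± 19.1 bp in MA, in 8 of 8 libraries. In MC the difference was -0.25 ± 10.05 bp. There MC_Het replicate 5 was narrower on the long arm (151 bp against 166 bp elsewhere). The other 3 were wider, with 121, 127 and 119 bp elsewhere. Narrow intervals, within 1 bp of 120 bp, made up 10.6% ± 6.6 of intervals on the other chromosomes in MA and 26.5% ± 5.0 in MC. On the long arm they made up 14.2% ± 5.4 in MA and 23.0% ± 4.4 in MC.

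Over the 12 libraries the mean difference from the other chromosomes was -27.6 bp (exact sign permutation p = 0.00391, adjusted 0.00547), and that from the short arm was -24.9 bp (exact p = 0.0117, adjusted 0.0117). The difference itself differed between MA and MC by -41.1 bp (exact permutation p = 0.00606, adjusted 0.0242), and by -29.8 bp in run 2 (exact p = 0.0667, the smallest possible). It was -121 bp with the 10000 strongest intervals (exact p = 0.00202) and -23 bp in complete lists (exact p = 0.00606). Without narrow intervals it was -50.7 bp (exact p = 0.00202). The width of the long arm intervals alone differed by 13.8 bp (exact p = 0.0808), whereas the means on the other chromosomes were 188 and 133 bp in MA and MC. The call on the long arm alone rested on single libraries, since the difference was 16.2 bp with an exact p = 0.0394 without MA replicate 10 and 19.8 bp with an exact p = 0.0242 without MC_Het replicate 5.

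The deposited fold enrichment sets the pileup of tags at the summit against the local background of the same library. It was slightly higher on the long arm, mainly in MC. The median fold was 6.63, 9.15 and 10.4 at the lowest, the median and the highest of the MA libraries, and 8.46, 8.95, 8.24 and 7.92 in the MC libraries. On the other chromosomes it was 8.47 ± 1.47 in MA and 6.88 ± 0.74 in MC. Within libraries the log2 ratio of long arm to other chromosomes was 0.07 ± 0.10 in MA and 0.29 ± 0.08 in MC. In MA alone the exact sign permutation test gave p = 0.102, and in MC alone p = 0.125, the smallest that 4 libraries allow. The mean log2 ratio over all libraries was 0.14, higher in 11 of 12 (exact sign permutation p = 0.00635, adjusted 0.00741). Against the short arm it was 0.19, also higher in 11 of 12 (exact p = 0.00195, adjusted 0.00342).

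The local background was lower on the long arm. The share of intervals whose local background exceeded the genome background of the library was 26.4% ± 5.3 on the long arm and 55.2% ± 3.8 on the other chromosomes in MA, and 26.7% ± 4.6 and 50.4% ± 3.2 in MC. The mean difference over the 12 libraries was -27.1 percentage points, lower in 12 of 12 (exact sign permutation p = 0.000488, adjusted 0.00114). When the pileup was set against the genome background in place of the local one, the log2 ratio of long arm to other chromosomes was -0.09 ± 0.17 in MA and 0.26 ± 0.13 in MC (SD, n = 8 and 4), a difference of -0.35 (exact permutation p = 0.00808). The mean over all 12 libraries was 0.03 (exact p = 0.657).

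The fold relative to the other chromosomes was lower in MA than in MC by 0.22 on the log2 scale (exact permutation p = 0.00202, adjusted 0.0162), and by 0.21 in run 2 (exact p = 0.0667, the smallest possible). Among the 10000 strongest intervals of each library this difference turned to 0.12 (exact p = 0.095). The fold on the long arm alone differed by 0.07 (exact p = 0.568), and by 0.16 with an exact p = 0.0429 without MA replicates 10 and 11. The share of raised local background relative to the other chromosomes differed by -5.13 percentage points (exact p = 0.0424), which did not pass adjustment (0.0679).

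**Figure D4:**
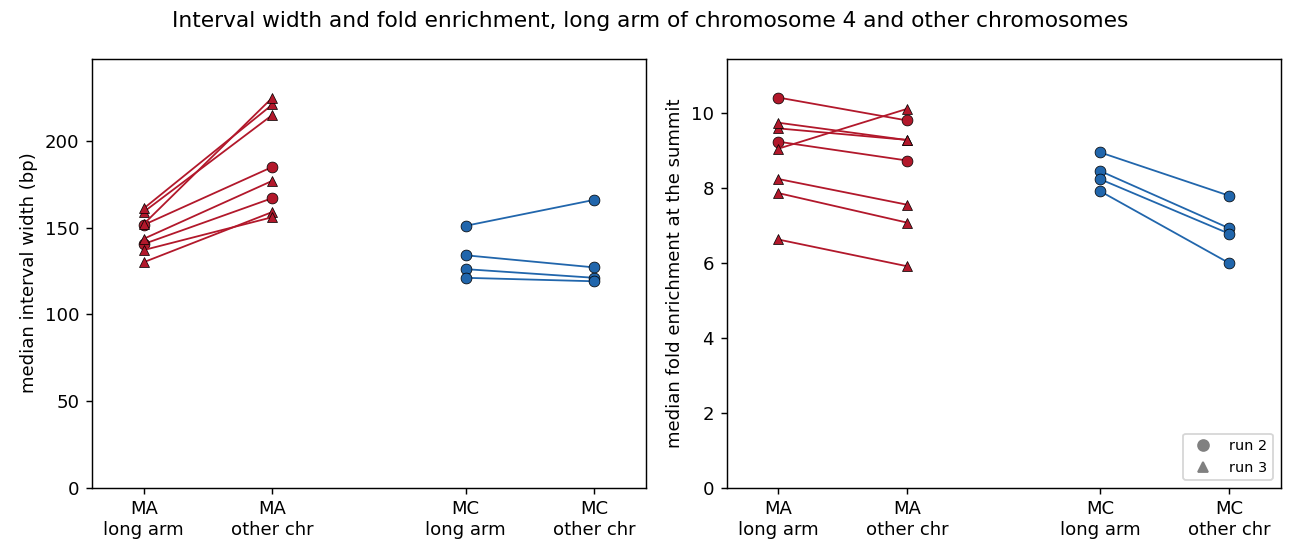
Median interval width in bp (left) and median fold enrichment at the summit (right) on the long arm and on the other chromosomes, with a line joining the values of each library, MA libraries left of MC libraries in each plot and the point shape for the sequencing run. In MA the width is lower on the long arm in 8 of 8 libraries, and the fold is higher on the long arm in 11 of 12 libraries.

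Regions of the long arm were shared by all libraries at least as often as regions elsewhere. Of its 2072 regions 144 (6.95%) were found in all 12 lists, against 3.27% on the short arm and 4.31% on the other chromosomes, and 857 (41.4%) were found in a single list, against 44.2% on the short arm and 44.4% on the other chromosomes. Regions found in every MA library made up 8.93% on the long arm and 9.96% on the other chromosomes. Regions found in every MC library made up 18.1% on the long arm and 11.5% on the other chromosomes. The interior had the highest share of regions in all 12 lists, 8.51% of its 1081 regions, against 3.45% of 290 in the first 3 Mb and 5.99% of 701 at the end.

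The regions of all 12 lists ranked high on the long arm, above all in MC. Their median rank lay at the top 12.5% ± 4.7 of the list in MA and the top 4.35% ± 1.35 in MC, whereas for the other chromosomes it lay at 13.3% ± 2.5 in MA and 19.0% ± 7.4 in MC. Their median fold was 22.8 ± 3.2 in MA and 29.0 ± 5.4 in MC on the long arm, and 18.6 ± 2.4 in MA and 13.3 ± 2.9 in MC elsewhere. On the long arm MC_Het replicate 5, the deepest library, had a median fold of 37.0. MC_Het replicates 4 and 6 and MC_Homo had 26.2, 27.4 and 25.3, and MA replicate 5 had 26.8, so the ranges of fold overlapped. By median rank MA replicate 5 lay at 6.35% and MC_Homo at 6.27%. These differences between MA and MC were not tested. In 18 of the 144 (12.5%) the first and last base of the interval were the same in all 12 libraries, against 341 of 8015 (4.25%) on the other chromosomes and 9.52% on the short arm. These 18 were 119 to 305 bp wide with a median of 121 bp. Of them 10 were narrow intervals, as were 214 of the 341 on the other chromosomes and 9 of 14 on the short arm.

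**Figure D5:**
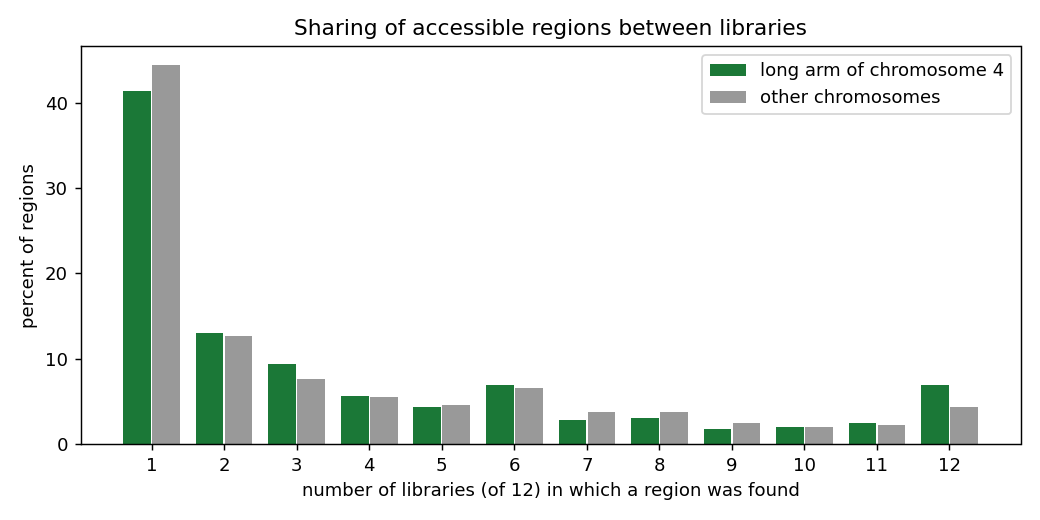
Percent of regions (y axis) by the number of libraries in which they were found (x axis, 1 to 12), for the 2072 regions of the long arm and the 186178 regions of the other chromosomes. The long arm has fewer regions in a single library (41.4% against 44.4%) and more in all 12 (6.95% against 4.31%).

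Of the 144 shared regions, the 5 with the best mean rank are named. The best, chr4:43446108-43446555, had a fold of 32.8, 35.7 and 38.8 at the lowest, the median and the highest of the MA libraries, and of 36.5, 33.0, 35.0 and 35.3 in the MC libraries. All 4 MC values lay within the range of MA. The next, chr4:68887611-68887901, had folds of 71.9, 74.4 and 79.2 in MA and of 79.4, 80.3, 79.7 and 79.2 in MC.

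The regions chr4:72766760-72766892 and chr4:76763520-76763640 kept the same bounds, of 133 and 121 bp, in all 12 libraries. The first had folds of 63.7, 68.1 and 72.9 at the lowest, the median and the highest of the MA libraries, and of 70.9, 80.8, 76.5 and 71.9 in the MC libraries. The second had folds of 59.1, 66.7 and 72.4 in MA and of 72.2, 76.0, 68.7 and 73.2 in MC. The last, chr4:55536876-55537087, had folds of 45.4, 65.3 and 69.9 in MA and of 69.5, 72.9, 69.3 and 66.7 in MC. In these 4 regions 1 to 3 of the 4 MC libraries lay above the highest MA library, and the ranges overlapped.

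The long arm profile still told the cell types apart. The Jaccard index, the shared length over the joint length of 2 lists, was 40.4% ± 6.0 on the long arm over the 28 pairs of MA libraries, 41.8% ± 3.1 over the 6 pairs of MC libraries and 28.7% ± 3.2 over the 32 mixed pairs. Pairs of the same type exceeded mixed pairs by 11.9 percentage points (exact permutation p = 0.00202, the smallest p of this design), and by 9.99 in run 2 (exact p = 0.0667, the smallest possible). On the other chromosomes the index was 42.8% ± 6.0 in MA pairs, 31.8% ± 4.1 in MC pairs and 20.4% ± 4.6 in mixed pairs, with an excess of 20.4 points. The difference between the long arm and the other chromosomes in this excess was not tested.

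Regions specific to 1 cell type were few. Of 564 long arm regions found in enough libraries to be tested, 12 (2.13%) were found in every MA library and no MC library, where 6.65% of all 53523 tested regions were called in that direction. In the other direction 11 (1.95%) were found in every MC library and no MA library, where 1.01% of all tested regions were called. Each had an adjusted p = 0.0264 by Fisher's exact test. At an unadjusted p under 0.05 the counts were 23 more often in MA (4.08%, against 16.5% of all tested regions) and 62 more often in MC (10.99%, against 7.09%).

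Both counts depended on the length of the list. With complete lists both were 0 after adjustment. There 17 favoured MA and 98 favoured MC at an unadjusted p under 0.05 by the same test. The share over all regions was not counted for complete lists, so those 17 and 98 have no base to be read against. In run 2 alone no region can pass. The adjusted count for MC was 17 to 21 when any 1 MC library was left out. The share over all regions was not counted there either, so this count has no base to be read against. Of the 12 MA regions 10 had an interval in the deep library MC_Het replicate 5 when its whole list was read, so only 2 were absent from every complete MC list, whereas 6 of the 11 MC regions were absent from every complete MA list.

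Of the 12 MA regions, 8 lay at the end of the arm, past 72 Mb. The end held 701 of all 2072 long arm regions, and 68 of the 185 found in every MA library. The placement of the 12 MA regions was not tested. Merged over the 8 MA libraries they were 201 to 807 bp wide, with a median of 417.5 bp. The best ranked was chr4:75301557-75301925, with folds of 9.35, 20.9 and 35.5 at the lowest, the median and the highest of the MA libraries. It was followed by chr4:72757058-72757864, with folds of 10.6 to 28.2, and chr4:77517320-77517956, with folds of 5.95 to 21.2. The fourth and the fifth were chr4:28300153-28300755 (7.50 to 20.3) and chr4:76426348-76426548 (6.86 to 20.6).

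The MC regions were weaker and spread over the arm, with 5 of 11 in the interior and 5 at the end. Of all 2072 long arm regions the interior held 1081 and the end 701. The placement of the 11 MC regions was not tested. Merged over the 4 MC libraries they were 119 to 1404 bp wide, with a median of 254 bp. The best ranked was chr4:74485123-74485294, with folds of 9.02, 10.1, 8.24 and 7.31 in the 4 MC libraries. It was followed by chr4:52373730-52373881 (6.70 to 10.7), chr4:72404439-72404568 (5.56 to 10.7), chr4:29293504-29293767 (6.64 to 10.9) and chr4:77468303-77468740 (4.87 to 8.72). The fourth of these had an interval in 1 complete MA list. The highest MC fold among these 5 regions stayed below the median MA fold of each of the 5 MA regions.

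Intervals of the long arm lay far apart. The median gap between neighbours was 33.9 ± 7.6 kb in MA and 29.2 ± 1.8 kb in MC, against 10.1 ± 0.7 kb in MA and 12.03 ± 0.25 kb in MC on the other chromosomes. Gaps over 100 kb made up 27.4% ± 5.6 of the long arm gaps in MA and 20.05% ± 1.68 in MC, against 3.34% and 2.74% elsewhere. The longest stretch with no region was chr4:45539136-46489973, of 951 kb, and it was empty in all 12 complete lists too. Whether reads could be placed there was not tested. The next, chr4:66006429-66465383 (459 kb) and chr4:48067927-48463744 (396 kb), each held an interval in 3 complete lists.

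The long arm windows with the most regions lay at its ends. The window chr4:77000001-78000000 held 145 regions, with 27 to 64 intervals in the MA libraries and 47 to 55 in the MC libraries. The window chr4:28000001-29000000 held 139 regions, with 13 to 48 intervals in MA and 29 to 33 in MC, and the window chr4:74000001-75000000 held 123, with 22 to 44 in MA and 37 to 53 in MC. The ranges of MA and MC overlapped in all 3. At the boundary itself, the first region inside, chr4:28003464-28003751, was found in 2 MA libraries and no MC library, and the last outside, chr4:27999813-27999982, in no MA library and 1 MC library.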

How the data were processed

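MA (8) and MC (4) libraries were grouped by their labels. According to the study's methods and the labels, the authors trimmed reads with CutAdapt, aligned them with BWA to danRer11, kept proper pairs of mapping quality over 30, removed duplicates, and called peaks per library with MACS2 without a control. The labels also name the older GRCz10 build. Reads that match several places are lost to that filter. How much of the repeat-rich long arm this removes was not tested. The authors deposited, per peak, the fold enrichment at the summit (a ratio to the local background after adding 1 to each), the −log10 p and the −log10 q. Tool versions are not given in the sources used here.

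Lines that share bounds were collapsed to their strongest summit. Pileup, local background and depth were solved from fold and −log10 p (at least 99.998% of pileups were whole to within 0.01 in every library). A local background was called raised when over the genome background by more than 2%. Lists were cut to 57910 intervals by −log10 p, merged at 1 bp overlap, and chromosome lengths were taken as the last interval end of any list, so unplaced bases are not removed. Tests were exact permutations over libraries (495 splits, 4096 sign patterns) or Fisher's exact test per region, with Benjamini-Hochberg adjustment, in Python 3.11.15 with scipy 1.17.1, and were tested on simulated data. Depth and the number of libraries limit precision. Named regions are the 5 best ranked in all 12 lists, up to 5 per direction specific to a type, the 3 windows with the most regions, the 3 longest gaps and the 2 regions at the boundary. Members, tests and lists were chosen with earlier results of these data known. Windows, sub-parts and rank classes were added after seeing the data. The alternatives were list length, boundary, threshold, narrow intervals, thinning, run and libraries left out. Alternate scaffolds were left out.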

Additional observations from a re-analysis of the deposited data

Results flagged for a closer look

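MC_Het replicate 5, the deepest library, stood above the other MC libraries in long arm density, with 17.8 intervals per Mb. MA replicate 6 stood below the other MA libraries in the fold of the long arm relative to the other chromosomes, with a log2 ratio of -0.16, and is the library with a lower fold on the long arm. These are 2 of 18 groups of values checked, and chance flags about 5% of groups.

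Contrasts within libraries differed between MA and MC in 4 measures, each by a two-sided exact permutation test of the difference. The log2 ratio of long to short arm density differed by -0.37 and the width relative to the other chromosomes by -41.1 bp. The log2 fold relative to the other chromosomes differed by -0.22, and the share of raised local background relative to them by -5.13 percentage points. The last did not pass adjustment over 8 comparisons, and the other 3 did.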

How the results depend on the processing

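Within MC alone long arm intervals were not clearly narrower, at -0.25 bp against the other chromosomes and 1.6 bp against the short arm. Under every alternative run the long arm stayed less dense than the short arm and the other chromosomes, on the same side of the threshold. Its lower local background and, over MA and MC together, its narrower intervals also kept their direction and side. Its higher fold also did, except that with pileup in place of fold the log2 ratio was 0.030 against the other chromosomes (-0.087 in MA, 0.26 in MC) and 0.049 against the short arm (-0.013 in MA, 0.17 in MC), past no threshold, while the difference between MA and MC against the other chromosomes was -0.35.

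The density difference between MA and MC (-0.47) was -0.39 in thinned lists and -0.53 at a −log10 q of 5 or more. It was -0.35 as a share of complete lists and -0.24 in run 2. None of these passed the threshold. Past it were -0.73 with 10000 intervals, -0.73 in complete lists, which differ in length, and -0.44 as a share of thinned lists. With 1 library left out the density difference was -0.52 to -0.39, past the threshold each time. The long over short arm difference (-0.37) lost the threshold at -0.088 in complete lists, -0.32 with 10000 intervals, -0.21 in thinned lists, -0.38 in run 2 and, without MC_Het replicate 5, -0.31 (range with 1 library left out -0.44 to -0.31). The short arm difference (-0.10) turned to 0.14 in run 2, 0.095 without MA replicates 10 and 11, and 0.010 without MA replicate 10 (range -0.14 to 0.010). The relative fold (-0.22) was -0.10 in complete lists, -0.12 with means and -0.21 in run 2, and reversed to 0.12 with 10000 intervals. The relative width (-41.1 bp) was -29.8 bp in run 2, and past the threshold at -121 bp with 10000 intervals and -23 bp in complete lists. The relative local background (-5.13) lost the threshold at -3.82 in complete lists, -0.62 with 10000 intervals, and -5.06 and -3.60 with the boundary at 26 and 30 Mb. It also lost it at -2.53 in run 2 and -4.14 without MA replicates 10 and 11. With 1 library left out it ranged from -6.28 to -4.06. It then lost the threshold without MA replicate 6, 8 or 10, MC_Het replicate 4 or 6, or MC_Homo. The width on the long arm (13.8 bp) passed the threshold at 11.5 bp in complete lists, 47.4 bp with 10000 intervals, 14.6 bp at the higher q and 18.2 bp without MA replicates 10 and 11 (range 9.81 to 19.8). The fold on the long arm (0.07) passed at 0.45 without narrow intervals and 0.16 without MA replicates 10 and 11. Sharing by cell type (11.9) was 9.99 in run 2.

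Long arm windows lower in MA numbered 29, and 17 in complete lists. Over all chromosomes such windows numbered 244, and 213 in complete lists. Regions more often in MA numbered 12, and 0 in complete lists, with 10000 intervals and in run 2. Those more often in MC numbered 11, then 0 in complete lists and run 2, and 6 with 10000 intervals. They numbered 19 without narrow intervals, and 12 to 21 with 1 library left out. In the main lists 6.65% of all tested regions were called for MA and 1.01% for MC. For the other settings the share over all regions was not counted. The cause of these shifts was not tested, but run 2 holds 6 libraries, which allow no p below 0.0667.

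Same-numbered MA and MC_Het libraries are different fish, and the labels pair them only by number. The correlations of their deviations were 0.08, 0.06 and 0.08. Between differently numbered libraries they were -0.08 to 0.01. Deviations were taken from the mean of the 3 libraries of each type, so positive values for same numbers force lower ones elsewhere. These correlations therefore cannot decide whether numbers pair libraries, and the cause was not tested. The pair numbered 6 joins an MA library of run 3 with an MC_Het library of run 2. With a replicate block over the 3 same-numbered pairs, which allows no p below 0.25, the differences were -0.25 for density, -0.41 for long over short arm and 0.16 for the short arm. They were -0.25 for relative fold, -37.7 bp for relative width and -4.76 points for local background. Lengths without unknown bases or masked repeats were not run for want of a genome.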
